A study of Mus musculus with 16 samples.

Results

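Pairs of 4 kb bins that join CTCF sites called in all 3 cell states of a chromatin contact study of mouse cells made up 5254 of 285961 bin pairs. They were selected on CTCF peak calls, and no contact value was used to choose them. CTCF is a zinc-finger protein that binds DNA at sites across the genome, and bound CTCF can halt the ring-shaped cohesin complex as it extrudes a loop of chromatin. Sites that stop cohesin from opposite sides, usually with their motifs facing each other, can then be held close together in the nucleus. Many CTCF sites are occupied in most cell types, whereas contacts between them can also depend on other factors and on the sites that lie between. At the sites joined here the presence of a peak does not separate the cell states.

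The measurements were chromosome conformation capture carbon copy (5C) contacts. In 5C, ligation products of crosslinked HindIII fragments are read with primers tiled across chosen loci, here around Klf4, Nestin, Oct4, Nanog, Olig1-Olig2 and Sox2 and across a gene desert. The untreated libraries form 3 groups of 2. The first was V6.5 embryonic stem (ES) cells, male and of strain 129SvJae x C57BL/6, in 2i medium with LIF, in which CHIR99021 and PD0325901 inhibit GSK3 and MEK. The second was V6.5 ES cells in serum with LIF. Both had been moved from feeder cells to gelatin before fixation. The third was neural progenitor cells (NPCs) from whole brains of P1 129SvJae x C57BL/6 mice carrying Sox2-eGFP, cultured as neurospheres, plated on laminin and fixed 1 day later. In addition, 2 libraries of NPCs treated with 20 nM siRNA against YY1 for 78 hours and 2 labelled as control siRNA covered the Sox2 and Klf4 loci. No label says that replicates came from separate cultures or animals, so that errors and p-values measure the spread between these libraries only. No RNA was analysed here with which to check cell identity or the depletion of YY1, and the growth text of the control siRNA libraries conflicts with their titles, which were followed. Genes and motifs at the bins were not annotated here, since no mm9 genome was used.

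A shared CTCF site was defined as a merged region that overlapped a peak of each of the 3 deposited CTCF ChIP-seq lists, 1 per cell state. Of 60688 merged regions in the genome, 26435 met this definition, and 185 of them lay in the 5C bins. They fell into 190 of the 1807 bins of 4 kb. The rule took every pair of such bins of the same locus at least 20 kb apart, which gave 5254 of 285961 bin pairs. Of these, 3351 had an interaction score in all 6 untreated libraries, among 191184 bin pairs that did. Of the 1903 that did not, 1891 were without a score in every library. Just outside the rule, 137 bins held at most a site of 2 lists and 75 a site of 1 list. The authors' fold enrichment had medians of 24.7, 28.6 and 17.84 in the 2i, serum and NPC lists for shared sites within the bins. For sites of 2 lists it had medians of 13.5, 12.76 and 11.25, the last over 3 sites only. These folds are the authors' values per peak and are compared only within a list.

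The bin pairs were spread unevenly. Oct4 held 2220 of the 3351 scored pairs (66.2%), Nestin 721, Olig1-Olig2 220, Nanog (Nanog-V2 in the files) 158, Klf4 23 and Sox2 9, while the gene desert held no shared site and therefore none. The distance between bins ran from 20 to 1304 kb with a median of 340 kb. Pairs share bins with one another, since all came from 176 bins, and neighbouring bins share reads because the authors smoothed counts over windows wider than a bin. Counts of bin pairs below are therefore not counts of independent contacts. In their own 4 kb bins, 719 of the 3351 pairs held counted primer pairs, and 3266 did within their 16 kb windows, where the median was 174 to 376 reads per library. The others had no counted primer pair there. Total counts per untreated library ran from 11784821 to 26533530, and both serum libraries were the deepest at 26533530 and 25791222. Whether depth has a part in the results for serum was not tested.

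The interaction score is the authors' value for how far a contact stands above what they expected for its surroundings. It equals −10 times log2 of the deposited p-value, so that a score of 10 stands for a p-value of 0.5 and one of 43.2 for 0.05. The median over all bin pairs was close to 10 in every library. Each score was set against the mean of bin pairs of the same locus and the same distance that had no CTCF peak of any list in either bin, a median of 115 pairs. The difference is called the excess. Of the 3351 pairs, 3 had no such match, which left 3348.

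Over all loci, bin pairs joining shared CTCF sites scored above their matches in 2i and in NPCs, and not in serum. The excess was 2.36 and 1.93 in the 2i libraries, −0.27 and −0.67 in serum, and 3.55 and 3.20 in NPCs. As means ± SD these are 2.15 ± 0.30, −0.47 ± 0.28 and 3.37 ± 0.25 (n = 2 libraries each). No library of one group overlapped those of another. With 2 libraries a group no permutation test can reach 0.05, and none was made on a score over the chosen pairs. The excess in serum changed sign without the Oct4 locus, an alternative chosen after seeing the data, to 0.74 ± 0.19, and with stronger or better aligned peaks (0.55 and 0.36 under those definitions). In NPCs it grew to 5.37 when the matched pairs also had no peak within 2 bins.

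Pair by pair the shift was modest. In both 2i libraries 1143 of the 3348 pairs (34.1%) lay above their matched mean, compared with 25.7% of bin pairs without CTCF. In both NPC libraries 1195 (35.7%) did, against 24.8%, and in both serum libraries 896 (26.8%), against 28.3%. Only 285 pairs (8.51%) were above their matches in all 6 libraries, compared with 4.52% of pairs without CTCF, and 503 (15.0%, against 16.6%) were below in all 6. A set of 268 pairs (8.0%, against 3.86%) was above in both 2i and both NPC libraries and below in both serum libraries. The median pair lay below its matched mean in 2i (−1.67), serum (−4.16) and NPCs (−0.39). Measured from the matched median, an alternative chosen after seeing the data, it lay 1.71 above in 2i, 3.21 above in NPCs and 0.90 below in serum.

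Bin pairs with a shared site in 1 bin only had an excess of 1.09 ± 0.005 in 2i, −0.38 ± 0.07 in serum and 1.44 ± 0.09 in NPCs (n = 2 each, 37407 pairs). Bin pairs joining sites of the ES lists only, which the NPC list lacks, showed another pattern. Their excess was 5.05 ± 0.96 in 2i, −0.12 ± 0.47 in serum and 0.12 ± 0.15 in NPCs (1351 pairs). In NPCs the pairs joining shared sites thus lay above those of ES-only sites in both libraries. In 2i the order was the opposite, and in serum both kinds were near 0. These differences were not tested.

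The excess differed with distance. At 50 to 100 kb, 248 pairs had an excess of 13.1 ± 0.81 in 2i, 6.88 ± 0.52 in serum and 10.4 ± 0.22 in NPCs, the highest of 6 distance bands in each group. Serum libraries stood at 7.25 and 6.51 there and at no more than 0.87 in any other band. At 20 to 50 kb (195 pairs) the means were 4.32 ± 0.92, −0.14 ± 0.21 and 4.40 ± 0.45. They were 2.38 ± 0.07, 0.47 ± 0.57 and 4.86 ± 0.08 at 100 to 200 kb (471 pairs), and 1.48 ± 0.25, −0.87 ± 0.24 and 3.03 ± 0.29 at 200 to 400 kb (996 pairs). Beyond 800 kb the 2i libraries stood at 0.02 and −1.23 and the serum libraries at −2.06 and −3.68, while the NPC libraries kept 2.10 and 2.40 (269 pairs). From 100 kb onward both NPC libraries lay above both libraries of each other group in every band.

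**Figure D1:**
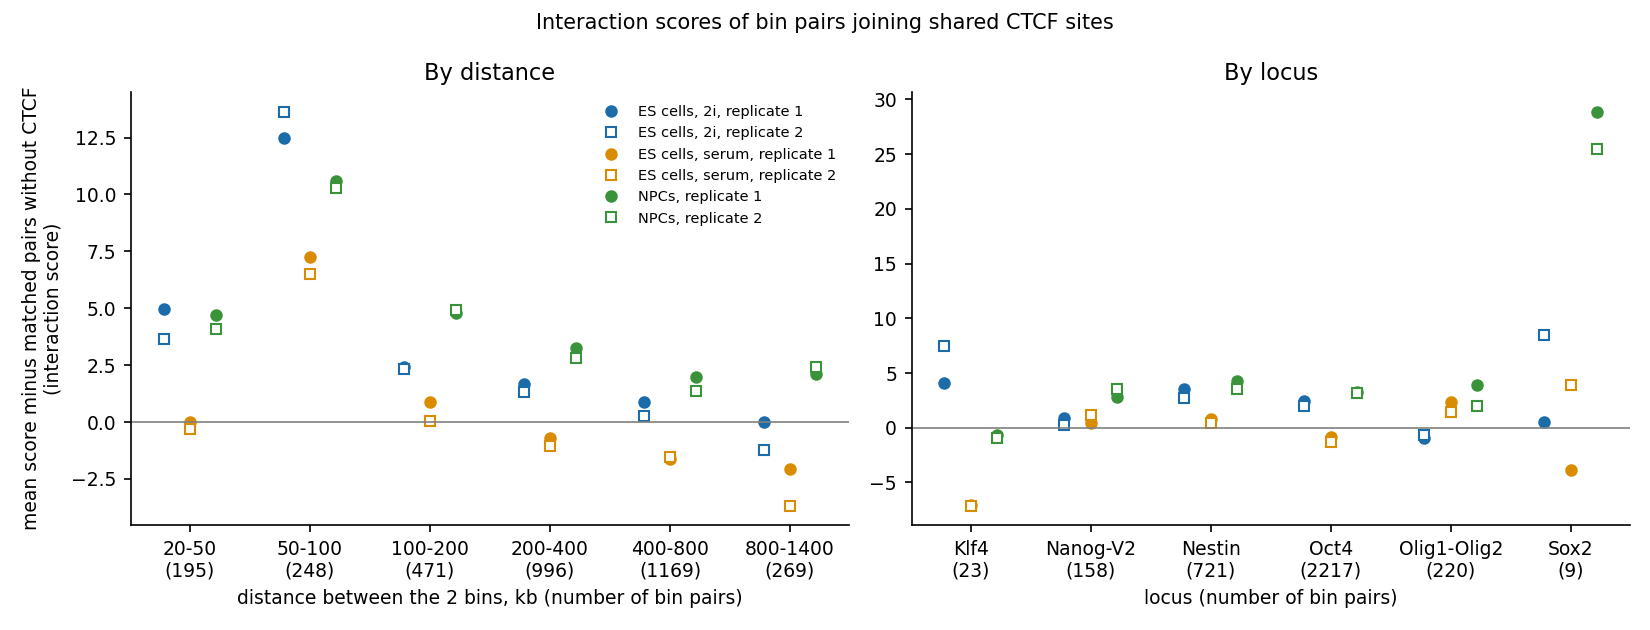
Mean interaction score of bin pairs joining shared CTCF sites minus that of matched pairs without CTCF, by distance (left) and by locus (right). Each point is 1 library, and numbers of bin pairs are in brackets. All 6 libraries peak at 50 to 100 kb, and the 9 Sox2 pairs stand at 28.9 and 25.5 in NPCs.

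The excess was centred near the sites. Around 679 pairs 60 to 200 kb apart, mean scores minus matched pairs were taken at offsets of up to 20 kb from each bin. The central 9 bin pairs averaged 5.24 and 5.61 in the 2i libraries and the 40 at the rim 1.85 and 1.81. In NPCs the centre had 6.43 and 6.42 and the rim 1.57 and 1.85. Serum had 2.08 and 1.47 at the centre and 0.62 and 0.40 at the rim. The highest value lay 0 to 4 kb inward of the upstream bin and 4 to 8 kb inward of the downstream bin in every library.

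**Figure D2:**
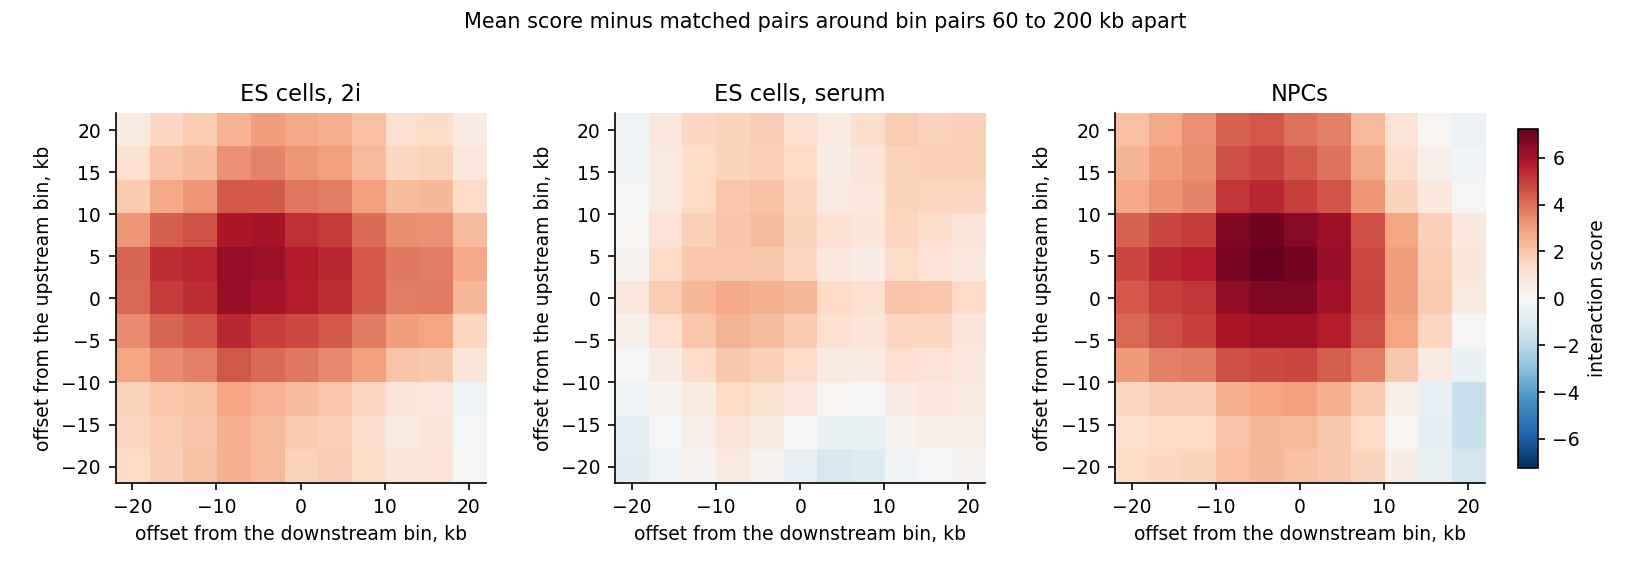
Mean score minus matched pairs without CTCF around 679 bin pairs joining shared CTCF sites 60 to 200 kb apart, averaged over the 2 libraries of a group. Axes give the offset in kb from the upstream and the downstream bin, the colour the difference in interaction score. The centre is highest in NPCs and 2i, and the serum panel is paler, with 2.08 and 1.47 at the centre of its libraries.

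Pairs with no other shared bin counted between them scored highest. The bin directly next to each end was left out of this count, so that it could itself hold a shared site. At 50 to 200 kb, 45 pairs without a counted shared bin between them had an excess of 17.3 ± 2.6 in 2i, 9.49 ± 0.45 in serum and 20.8 ± 1.2 in NPCs. With 1 to 4 shared bins between (399 pairs) it was 6.75 ± 0.37, 2.89 ± 0.44 and 6.83 ± 0.23. With 5 or more (275 pairs) it was 3.22 ± 0.35, 1.26 ± 0.74 and 4.41 ± 0.47. The order held in all 6 libraries. Pairs with more sites between them were also farther apart within the range, and the match removes distance from each excess but not the number of other pairs nearby.

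Over all distances the excess rose with peak strength in both NPC libraries and in neither ES state. When pairs were divided into terciles by the weaker of their 2 peaks, the NPC libraries had an excess of 2.27 and 2.79 in the weakest, 3.36 and 2.81 in the middle and 5.02 and 3.99 in the strongest tercile. Under 200 kb the NPC values were 3.31 and 4.30, then 5.05 and 4.67, then 10.6 and 9.59. In 2i the weakest tercile had 2.53 and 2.28 and the strongest 2.45 and 2.28 over all distances. Under 200 kb the strongest was highest in 2i as well, with 7.36 and 7.73 against 5.20 and 6.03 in the weakest and 4.40 and 3.08 in the middle. In serum the middle tercile was highest, at 0.71 and 0.55 over all distances and 5.25 and 3.99 under 200 kb. There the strongest serum tercile, at 2.28 and 1.73, was above the weakest, at −0.60 and −0.79. The difference between groups in this ordering was not tested.

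A bin can score high with all of its partners, whether or not they bind CTCF. To measure this, each bin was given a level, its mean excess over partners without any peak, at all distances together. At least 10 such partners were required. This measure was chosen after seeing the data. Among the 176 shared bins the level ran from −8.81 to 21.5 in 2i, from −10.1 to 12.3 in serum and from −6.71 to 22.03 in NPCs. Their medians were 0.54, −0.16 and 0.69. The levels of the 2 bins of a pair, summed, averaged 2.11 in 2i, −0.30 in serum and 2.93 in NPCs. They are to be read beside the excess of 2.15, −0.47 and 3.37 of the same pairs. The remainder was 0.04 ± 0.11, −0.17 ± 0.11 and 0.44 ± 0.27 (n = 2 each).

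By distance this remainder was not even. At 50 to 100 kb it was 10.5 ± 1.0 in 2i, 7.47 ± 0.36 in serum and 7.58 ± 0.36 in NPCs, larger than the summed bin levels in all 3 states. A bin's level is pooled over all distances. The remainder of a band therefore cannot separate the pair from a bin that scores high at that distance. At 20 to 50 kb it was 2.56 ± 0.58, 0.95 ± 0.04 and 1.22 ± 0.11, and at 100 to 200 kb 0.88 ± 0.19, 0.12 ± 0.43 and 1.84 ± 0.03. At 400 to 800 kb it was negative in every library, with means of −1.42, −1.33 and −1.14. The Sox2 pairs had the highest remainder of any locus in NPCs, 19.6 ± 1.8. At Oct4, which held most pairs, it was −0.265 in 2i, −0.934 in serum and 0.014 in NPCs. At Klf4 it was negative in each state, at −3.10, −2.96 and −3.37. Nestin had 0.37, 1.17 and 0.99, Nanog 0.38, 0.94 and 1.61, and Olig1-Olig2 1.87, 2.32 and 1.72.

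**Figure D3:**
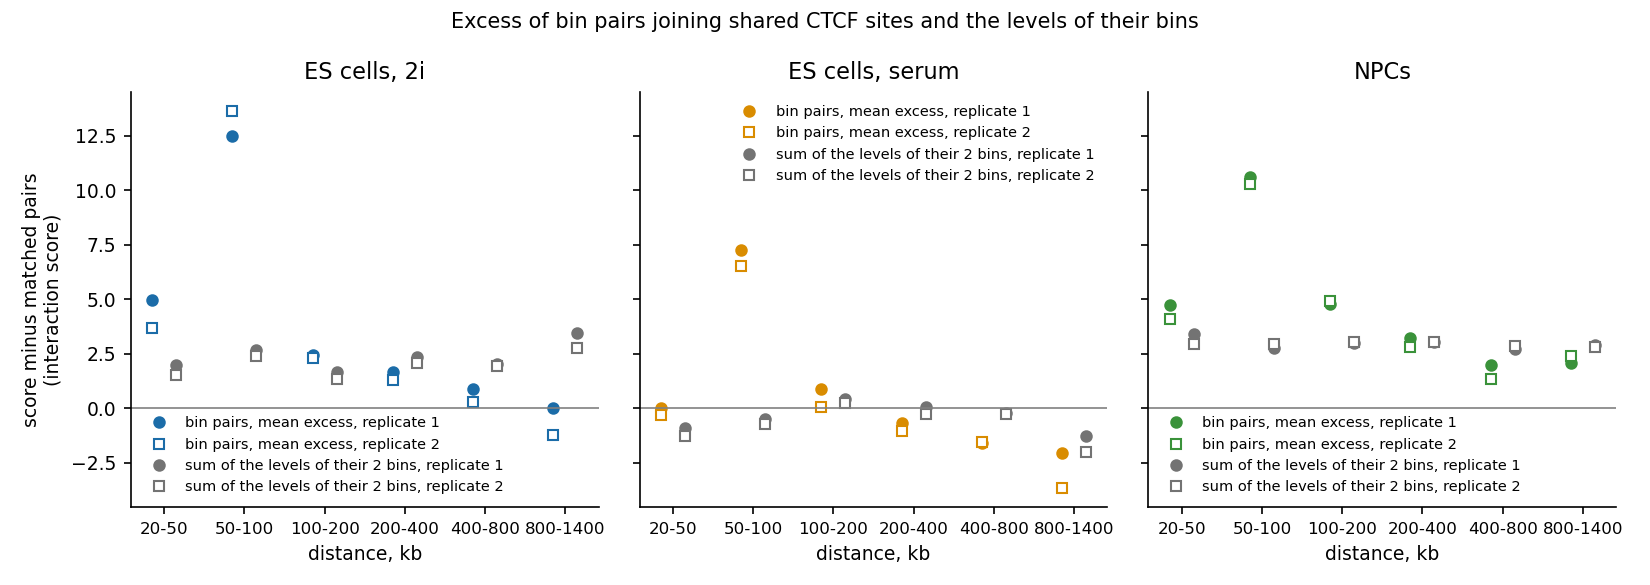
Mean excess of bin pairs joining shared CTCF sites (coloured) and the sum of the levels of their 2 bins (grey), by distance band in kb, with 1 point per library. The y axis is interaction score minus matched pairs. Excess and bin levels are far apart at 50 to 100 kb in each group and lie closer together from 100 to 400 kb.

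NPCs had the highest mean excess at every locus with such pairs except Klf4, where 2i stood highest. Which ES state came next differed between loci. Oct4 (Pou5f1) encodes a transcription factor required for pluripotency, and its 2217 matched pairs had an excess of 2.19 ± 0.30 in 2i, −1.09 ± 0.32 in serum and 3.20 ± 0.10 in NPCs. Nestin, an intermediate filament protein of neural progenitors, had 3.12 ± 0.58, 0.63 ± 0.27 and 3.91 ± 0.53. Nanog, another pluripotency factor, had 0.55 ± 0.48, 0.82 ± 0.53 and 3.18 ± 0.51. Olig1-Olig2, a locus of transcription factors of the oligodendrocyte and motor neuron lineages, had −0.78 ± 0.17, 1.92 ± 0.67 and 2.95 ± 1.34. At Oct4, Nestin, Nanog and Olig1-Olig2 both libraries of NPCs lay above both of 2i, at Nestin by a narrow margin (3.54 against 3.53).

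Klf4 and Sox2 rest on few bin pairs. At Klf4, a locus of a factor used in reprogramming, 23 pairs from 8 shared bins had an excess of 4.10 and 7.43 in 2i, −7.02 and −7.11 in serum and −0.65 and −0.96 in NPCs. At Sox2, which is transcribed in ES cells and in neural progenitors, 9 pairs had 0.51 and 8.51 in 2i, −3.83 and 3.88 in serum and 28.9 and 25.5 in NPCs. These 9 pairs come from 5 shared bins, 2 of which are 8 kb apart. With each locus weighted equally, also chosen after seeing the data, the excess over all loci was 2.56 in 2i, −0.79 in serum and 6.60 in NPCs.

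In the authors' deposited table of looping classes, 131 of the 3348 pairs (3.91%) were listed in a looping class, compared with 2.06% of all 191184 scored bin pairs. At the rates of bin pairs without CTCF of the same locus and distance, 62.6 would be listed. The classes were given over the same 6 libraries, so that here and below they are not independent of the scores. By the classes of the authors' deposited table, 65 of the 131 were constitutive, 25 were shared by NPC and 2i, 20 were NPC only and 7 were shared by both ES states. It lists 6 as 2i only, 5 as serum ES only and 3 as shared by serum ES and NPC. The serum ES only class was the single looping class below its matched rate, at 5 pairs against 9.11. The authors' deposited table put 27 pairs in its background class, against 42.7 at the matched rate. By locus it lists 84 of 2217 pairs at Oct4, 31 of 721 at Nestin, 7 of 220 at Olig1-Olig2, 5 of 158 at Nanog, 4 of 9 at Sox2 and 0 of 23 at Klf4. The matched rate would give 42.5, 13.2, 3.74, 2.66, 0.212 and 0.274 in the same order of loci.

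The bin pairs with the highest mean score in each locus were taken by score and are therefore a description. The highest of all joined Oct4 bins 104 and 125, 84 kb apart (chr17:34846392-34850391 and chr17:34930392-34934391 in mm9). It scored 84.3 and 121 in 2i, 110 and 91.8 in serum and 119 and 117 in NPCs, against 17.7 to 21.2 in matched pairs. All 6 libraries were high and the groups overlapped. Counts of its 16 kb window pair were 1.42 higher in NPCs than in 2i on the log2 scale (SE 0.22, edgeR adjusted p = 0.0004), which the score did not show. Oct4 bins 4 and 23, 76 kb apart (chr17:34446392-34450391 and chr17:34522392-34526391), scored 106 and 113 in 2i, 86.2 and 78.8 in serum and 76.5 and 78.4 in NPCs. The authors' deposited table lists both as constitutive.

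Nestin bins 5 and 20 (chr3:87305088-87309087 and chr3:87365088-87369087) had 62.4 and 90.8 in 2i, 65.9 and 68.1 in serum and 68.6 and 66.2 in NPCs. Nestin bins 231 and 246 (chr3:88209088-88213087 and chr3:88269088-88273087) had 66.2 and 71.6, 61.6 and 72.2, and 71.1 and 71.6. Both pairs were 60 kb apart, listed as constitutive in the authors' deposited table, and close in score across the states. No difference between groups passed the limma threshold for either (adjusted p from 0.62 to 0.99), where the SE of a difference was 12.1 for the first and 9.65 for the second. In counts the second was 0.72 higher in NPCs than in serum on the log2 scale (SE 0.18, edgeR adjusted p = 0.0062), and the first was lower by 0.61 in serum than in 2i (SE 0.21, edgeR adjusted p = 0.048).

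Other leading pairs were high in ES cells. Nanog bins 105 and 120, 60 kb apart (chr6:122609360-122613359 and chr6:122669360-122673359), scored 58.9 and 63.2 in 2i, 61.1 and 58.5 in serum and 32.5 and 37.1 in NPCs. The 4 ES libraries were above both NPC libraries, which still exceeded their matched mean of 10.7. Limma did not call the difference of NPCs from 2i (−26.3, SE 7.85, adjusted p = 0.10), while counts fell by 0.86 on the log2 scale (SE 0.18, edgeR adjusted p = 0.0037). Nestin bins 176 and 191, also 60 kb apart (chr3:87989088-87993087 and chr3:88049088-88053087), scored 69.4 and 78.1, 78.2 and 72.3, and 39.3 and 43.7. Counts of the 16 kb window pair at that position did not follow, with 2657 and 2951 reads in 2i and 5459 and 3712 in NPCs. On the log2 scale NPC counts were 0.83 above 2i (SE 0.21, edgeR adjusted p = 0.011), of opposite sign to the score difference of −32.3 (SE 9.18, limma adjusted p = 0.095).

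**Figure D4:**
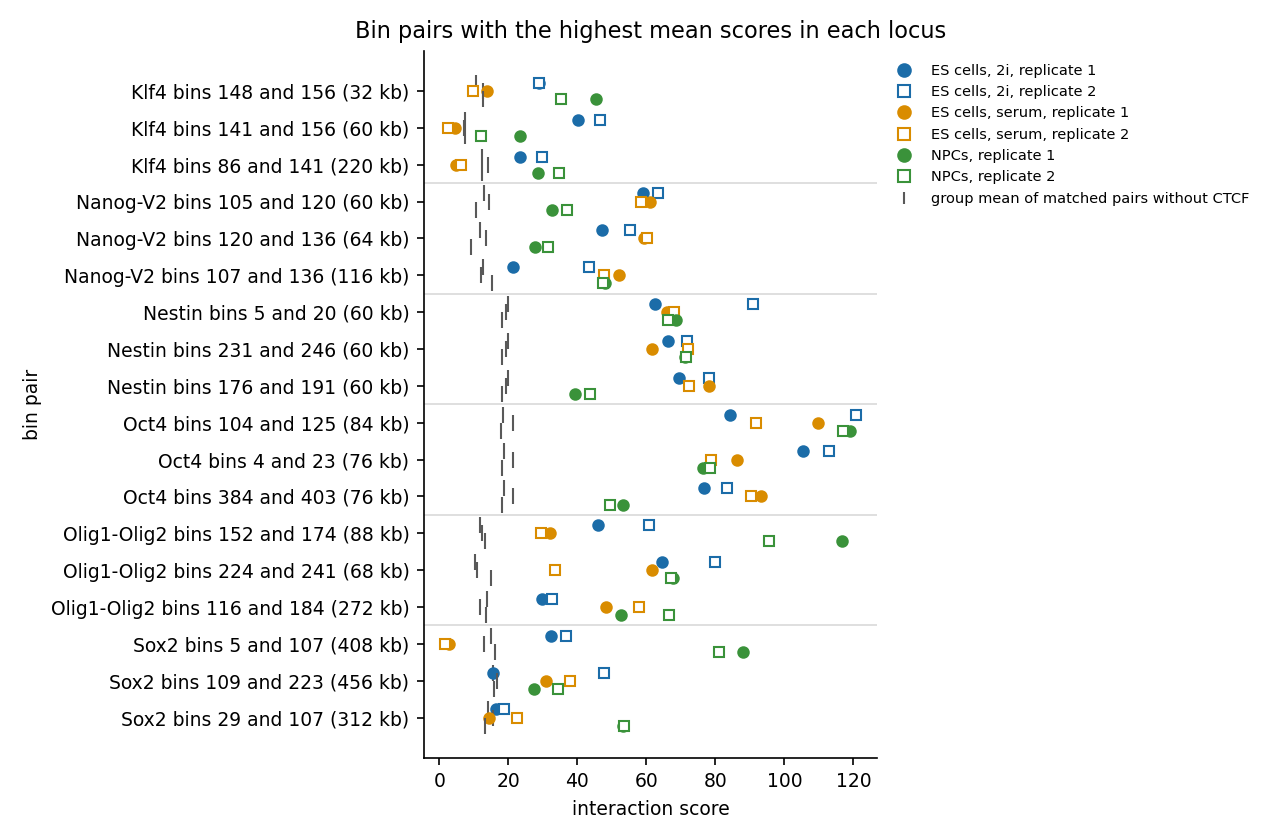
Interaction scores of the 3 bin pairs with the highest mean score in each locus, in each of the 6 untreated libraries, with the group mean of matched pairs without CTCF as ticks. Oct4 bins 104 and 125 lie between 84.3 and 121, and Sox2 bins 5 and 107 spread from 1.49 in serum to 88.1 in NPCs.

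Differences between states were tested over all 191184 bin pairs with limma on the scores, and over 15190 pairs of 16 kb windows with edgeR on raw counts (Benjamini-Hochberg adjusted p below 0.05 in both). The 3 comparisons share libraries, so that their results are not independent of one another. The limma calls rest on all 6 libraries. Of the 10 named calls per comparison, none remained when any 1 library was left out, except that 4 of the 10 for NPC against serum remained without NPC replicate 2. The window counts, which kept calls in every fit without 1 library, are therefore given beside the scores. They are reads of the same 6 libraries, so that agreement of counts with scores is not independent support. Shares of agreement are given for the joined pairs only, with no share over all called bin pairs beside them.

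From 2i to NPCs, limma called 84 of the 3351 pairs higher (2.51%) and 39 lower (1.16%), with 1.87% and 1.82% of all bin pairs called in these directions. The median difference was 0.98 over the pairs and 0.10 over all bin pairs. Neighbours within 5 bins in both directions counted together, the 84 formed 48 groups and the 39 formed 21. Oct4 held 50 of those higher, Nestin 22, Olig1-Olig2 7, Sox2 3 and Nanog 2. Those lower were 27 at Oct4, 6 at Nestin, 4 at Klf4 and 2 at Olig1-Olig2.

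In counts, 227 of 2367 window pairs that hold such a bin pair rose in NPCs over 2i (9.59%) and 191 fell (8.07%), with 8.97% and 8.8% of all window pairs called. These shares are close to the background. With plain TMM scaling in place of the distance trend the split was 160 higher and 362 lower, so that the direction of the whole set depends on the scaling. Without 2i replicate 1 the calls in counts came to 206, from 418. Of the 84 bin pairs higher in score, 76 lay in a tested window pair, which had the same sign for 55, was called with that sign for 32 and with the opposite sign for 2. Of the 39 lower, 34 lay in one, with the same sign for 32 and a call for 24.

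Among pairs that rose from 2i to NPCs, Olig1-Olig2 bins 116 and 152, 144 kb apart (chr16:91078613-91082612 and chr16:91222613-91226612), scored 13.8 and 8.60 in 2i, 3.82 and 1.34 in serum and 69.2 and 56.3 in NPCs. Both ES states were near or below their matched means of 13.0 and 13.6, and both NPC libraries were far above 12.3. The difference from 2i was 51.6 with SE 6.58 (limma adjusted p = 0.036), and window counts rose by 1.15 on the log2 scale (SE 0.17, edgeR adjusted p = 0.00019). The authors' deposited table lists it as NPC only.

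Sox2 bins 5 and 107, 408 kb apart (chr3:34128880-34132879 and chr3:34536880-34540879), scored 32.3 and 36.6 in 2i, 2.90 and 1.49 in serum and 88.1 and 81.1 in NPCs. The 3 states did not overlap in score. It rose by 50.1 (SE 6.99, limma adjusted p = 0.037) from 2i and by 82.4 (adjusted p = 0.030) from serum, the largest rise over serum of all named pairs. In counts the rises were 1.23 on the log2 scale (SE 0.20, edgeR adjusted p = 0.00052) and 1.09 (SE 0.20, edgeR adjusted p = 0.00064). The 2 ES states differed in score only. Serum minus 2i was −32.2 in score (SE 6.99, limma adjusted p = 0.046). In counts it was 0.14 on the log2 scale (SE 0.20, edgeR adjusted p = 0.66).

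The other Sox2 pairs shared this pattern in part. Bins 5 and 109 scored 17.3 and 21.2 in 2i, 3.06 and 1.69 in serum and 82.0 and 53.4 in NPCs. Bins 29 and 107 scored 16.5 and 18.7, 14.2 and 22.5, and 53.1 and 53.4. Bins 5 and 223, 872 kb apart, scored 0.29 and 8.94, 0.38 and 8.44, and 51.7 and 46.5. All 3 were higher in both NPC libraries than in any ES library. The authors' deposited table lists these, with bins 5 and 107, as NPC only. Bins 107 and 223 went the other way, with 15.5 and 38.3, 18.9 and 36.9, and 3.62 and 12.8. Bins 29 and 109 and bins 29 and 223 were above the ES libraries by narrow margins, with NPC scores of 41.5 and 41.3 against at most 39.9 and of 8.85 and 22.7 against at most 8.25. Bins 5 and 29 and bins 109 and 223 overlapped between NPCs and an ES state.

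Further rises over 2i were named at Oct4 and Nestin. Oct4 bins 395 and 455, 240 kb apart, scored 3.00 and 1.88 in 2i, 2.47 and 8.84 in serum and 52.0 and 58.1 in NPCs (difference 52.6, SE 5.51, limma adjusted p = 0.036). No primer pair was counted in their own 16 kb window pair, so that no count bears on this call. Nestin bins 131 and 189, 232 kb apart (chr3:87809088-87813087 and chr3:88041088-88045087), scored 4.96 and 7.29 in 2i, 55.9 and 40.8 in serum and 63.3 and 49.3 in NPCs. That pair was low in 2i and high in both other states. It rose over 2i by 50.2 (SE 8.47, limma adjusted p = 0.040) in NPCs and by 42.2 (adjusted p = 0.041) in serum. Window counts rose as well, by 1.90 on the log2 scale (SE 0.26, edgeR adjusted p = 0.00011) and 1.15 (SE 0.25, edgeR adjusted p = 0.0050). Nestin bins 122 and 147 rose by 50.0 in score, whereas the change in their window counts was 0.38 on the log2 scale (SE 0.21, edgeR adjusted p = 0.25).

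All 5 named falls from 2i to NPCs were at Oct4, and bins 297 and 304 were an end of 4 of them. Oct4 bins 297 and 384, 348 kb apart (chr17:35618392-35622391 and chr17:35966392-35970391), scored 50.6 and 62.5 in 2i, 27.6 and 18.0 in serum and 7.09 and 7.91 in NPCs. The states were separate and ordered from 2i down to NPCs. The difference was −49.0 with SE 7.00 (limma adjusted p = 0.037), and counts fell by 2.04 on the log2 scale (SE 0.23, edgeR adjusted p = 2.3e-05), from 756 and 707 reads to 87 and 117. Oct4 bins 304 and 490, 744 kb apart, scored 57.7 and 47.5 in 2i, 5.96 and 9.37 in serum and 10.6 and 3.98 in NPCs, and their window counts fell by 1.67 on the log2 scale (SE 0.30, edgeR adjusted p = 0.0010). For Oct4 bins 297 and 322 and bins 304 and 385 score and counts fell too, by 1.51 and 0.64 on the log2 scale in counts (edgeR adjusted p = 0.011 and 0.039). Oct4 bins 257 and 396 had 54.0 and 56.6 in 2i and 16.99 and 0.01 in NPCs, with 0 to 4 reads per library in the window pair, too few to test.

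Between serum and NPCs limma called 224 pairs higher in NPCs (6.68%) and 108 lower (3.22%), with 4.53% and 4.89% of all bin pairs called. The median difference was 2.45 over the pairs and −0.13 over all bin pairs. In counts 458 of 2367 window pairs rose (19.3%) and 247 fell (10.4%), with 14.1% and 15.1% of all window pairs called. Here the split kept its direction under plain TMM scaling (466 and 259) and with DESeq2 (481 and 252). Without serum replicate 1 or 2 the calls in counts went down to 393 and 353 from 705. Of the 224 higher in score, 210 lay in a tested window pair, with the same sign for 178, a call of that sign for 126 and an opposite call for 3. Of the 108 lower, 106 did, with the same sign for 84 and a call for 30.

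Olig1-Olig2 bins 152 and 174, 88 kb apart (chr16:91222613-91226612 and chr16:91310613-91314612), scored 45.9 and 60.8 in 2i, 32.2 and 29.4 in serum and 117 and 95.5 in NPCs. Every library was above its matched mean, and both NPC libraries were above the others. The difference of NPC from serum was 75.3 with SE 11.2 (limma adjusted p = 0.030). Counts were 2707 and 3082 in serum and 11087 and 8051 in NPCs, a rise of 2.70 on the log2 scale (SE 0.22, edgeR adjusted p = 6.8e-07). No other shared bin lies between these sites. The authors' deposited table lists the pair as shared by NPC and 2i.

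Oct4 bins 426 and 475, 196 kb apart (chr17:36134392-36138391 and chr17:36330392-36334391), scored 38.8 and 39.8 in 2i, 0.91 and 3.75 in serum and 77.9 and 71.8 in NPCs. They rose over serum by 72.5 with SE 6.73 (limma adjusted p = 0.030) and in counts by 1.87 on the log2 scale (SE 0.22, edgeR adjusted p = 2.1e-05). Over 2i the score rose by 35.6 (SE 6.73, limma adjusted p = 0.046). The counts did not follow, with −0.10 on the log2 scale (SE 0.22, edgeR adjusted p = 0.81). Oct4 bins 29 and 240, 844 kb apart, had 24.5 and 65.8, 16.38 and 16.45, and 84.5 and 85.8, with a rise in counts of 1.22 (SE 0.35, edgeR adjusted p = 0.016). Nestin bins 67 and 122, 220 kb apart, had 66.4 and 61.5, 8.11 and 1.66, and 73.4 and 68.0, with no primer pair counted in their window pair.

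Of the named falls from serum to NPCs, only some were also called in counts. Oct4 bins 297 and 310, 52 kb apart (chr17:35618392-35622391 and chr17:35670392-35674391), scored 52.5 and 72.9 in 2i, 83.5 and 79.4 in serum and 30.6 and 27.8 in NPCs. The difference was −52.2 with SE 9.96 (limma adjusted p = 0.034), and counts fell by 1.39 on the log2 scale (SE 0.17, edgeR adjusted p = 2.3e-05), from 5628 and 5907 reads to 779 and 860. Oct4 bins 297 and 396 fell in both readouts as well, by 42.5 in score and by 1.28 on the log2 scale in counts (SE 0.24, edgeR adjusted p = 0.0010). Nestin bins 4 and 136 fell by 54.3 in score, with a change of −0.50 on the log2 scale in counts (SE 0.30, edgeR adjusted p = 0.23). For Oct4 bins 324 and 484 the count change was −1.16 (SE 0.43, edgeR adjusted p = 0.053).

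From 2i to serum limma called 71 pairs higher (2.12%) and 155 lower (4.63%), with 3.61% and 3.53% of all bin pairs called. The median difference was −0.94 over the pairs and 0.28 over all bin pairs. In counts 203 of 2367 window pairs rose (8.58%) and 315 fell (13.3%), with 11.5% and 10.2% of all window pairs called. Plain TMM scaling gave 102 higher and 470 lower, a wider split in the same direction. Without serum replicate 2 the calls in counts came to 139, without serum replicate 1 to 212 and without 2i replicate 1 to 192, from 518. Of the 155 lower in score, 144 lay in a tested window pair, with the same sign for 130 and a call for 98. Of the 71 higher, 70 did, with the same sign for 56 and a call for only 15.

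Of the 5 named falls from 2i to serum, 3 had Oct4 bin 475 at one end. Oct4 bins 454 and 475, 84 kb apart (chr17:36246392-36250391 and chr17:36330392-36334391), scored 90.7 and 82.9 in 2i, 1.04 and 1.63 in serum and 76.0 and 55.5 in NPCs. The difference was −85.5 with SE 9.67 (limma adjusted p = 0.036), and no primer pair was counted in the window pair. Oct4 bins 360 and 475 had 65 and 67 reads in 2i, 9 and 12 in serum and 27 and 29 in NPCs, a fall of 3.35 on the log2 scale (SE 0.55, edgeR adjusted p = 0.00079). Oct4 bins 387 and 475 had 44 and 34, 5 and 11, and 5 and 6 reads, with a fall of 3.04 (SE 0.71, edgeR adjusted p = 0.0074). Their scores were 80.4 and 58.7 in 2i, 0.06 and 0.26 in serum and 37.8 and 32.8 in NPCs. NPC minus serum was 35.2 in score (SE 8.6, limma adjusted p = 0.052). In counts it was 1.025 on the log2 scale (SE 0.826, edgeR adjusted p = 0.38).

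The other named falls from 2i to serum had larger counts. Oct4 bins 304 and 387, 332 kb apart (chr17:35646392-35650391 and chr17:35978392-35982391), scored 74.2 and 61.9 in 2i, 2.79 and 8.26 in serum and 24.1 and 28.7 in NPCs. Their window pair, the same as that of bins 304 and 385, held 1394 and 1181 reads in 2i and 570 and 656 in serum, a fall of 1.87 on the log2 scale (SE 0.21, edgeR adjusted p = 3.6e-05). Nestin bins 250 and 260, 40 kb apart (chr3:88285088-88289087 and chr3:88325088-88329087), scored 75.8 and 80.5, 15.7 and 18.0, and 48.2 and 51.9. Counts there fell by 0.89 on the log2 scale (SE 0.19, edgeR adjusted p = 0.0038). Serum was at its matched mean of 17.2 and the other states were above theirs.

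Of the 5 named rises from 2i to serum, edgeR called 1 in counts. Oct4 bins 69 and 395, the most distant of all scored pairs at 1304 kb, scored 0.81 and 0.07 in 2i, 55.4 and 106 in serum and 15.1 and 2.48 in NPCs. The window pair held 8 to 51 reads per library, and its change was −0.37 on the log2 scale (SE 0.61, edgeR adjusted p = 0.71), of opposite sign to the score. Oct4 bins 258 and 490, Nestin bins 4 and 136 and Oct4 bins 324 and 484 had count changes of 0.56, −0.28 and 0.26 with adjusted p of 0.54, 0.53 and 0.70 in edgeR. The one called was Nestin bins 131 and 189, described above.

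Some bins had a high or low mean excess both with partners that hold a shared site and with partners without a peak. Oct4 bin 475 (chr17:36330392-36334391) had the highest mean excess of the 171 shared bins with at least 5 partners. Over 38 partners with a shared site the excess was 32.7 and 22.7 in 2i, −13.0 and −12.6 in serum and 20.6 and 24.0 in NPCs. Over 110 partners without a peak it was 21.8 and 21.3, −9.55 and −8.86, and 22.2 and 21.9, so that the same pattern was present with partners that bind no CTCF. Its 16 kb window held 0.613% and 0.533% of the counts of the locus in 2i, 0.156% and 0.186% in serum and 0.444% and 0.472% in NPCs. Both serum libraries were thus low in the share of the locus for this window as a whole. In reads it held 18305 and 16748 in 2i, 10229 and 12673 in serum and 11408 and 11454 in NPCs.

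Olig1-Olig2 bin 152 (chr16:91222613-91226612), an end of 2 pairs named above, had 7.27 and 9.50 in 2i, −2.93 and −5.35 in serum and 24.6 and 13.6 in NPCs over 21 partners. Partners without a peak gave 6.24 and 3.73, −6.99 and −8.29, and 17.7 and 8.58. Its window took 3.62% and 3.59% of the counts of the locus in 2i, 2.73% in both serum libraries and 8.59% and 7.22% in NPCs. Klf4 bin 141 had 12.6 and 19.0, −7.25 and −7.46, and 2.37 and 1.53 over 6 partners, and 5.34 and 6.96, −1.42 and −0.65, and −0.30 and −1.60 over 209 partners without a peak.

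Nestin bin 20 (chr3:87365088-87369087) was the only one of these 5 bins that was above its matches with shared sites in all 6 libraries and near 0 without a peak in 2i and NPCs. Its values over 23 shared partners were 6.70 and 11.2 in 2i, 11.1 and 9.81 in serum and 4.50 and 2.94 in NPCs. Over 110 partners without a peak they were −0.85 and 1.14, 7.67 and 4.92, and 0.96 and −0.08. Nanog bin 120 had a positive mean excess in all libraries with both kinds of partner. Of the 171 bins, 108 had a positive excess in both NPC libraries, 90 in both 2i libraries and 64 in both serum libraries, and 17 in all 6. No share of other bins is given beside these counts, which are a description only.

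**Figure D5:**
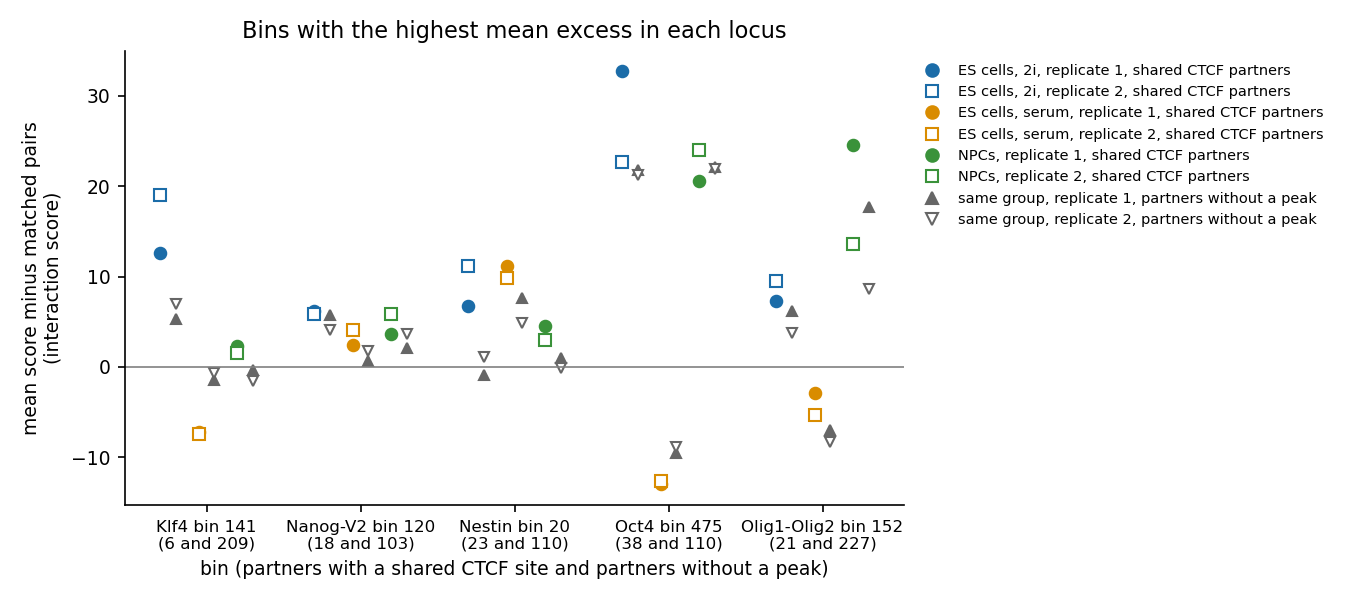
Mean score minus matched pairs for the shared CTCF bin with the highest mean excess in each of 5 loci, in each library. Coloured points are partners with a shared CTCF site, grey triangles the partners without a CTCF peak, and their numbers are in brackets. At Oct4 bin 475 grey and coloured points follow each other, from 32.7 in 2i to −13.0 in serum.

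Scores of the joined bins were more alike between replicates than scores in general. Over the 3351 pairs Pearson's r between the 2 libraries of a group was 0.79 in 2i, 0.76 in serum and 0.73 in NPCs, compared with 0.71, 0.73 and 0.64 over all 191184 bin pairs. Between groups it ran from 0.24 to 0.52 over the pairs and from 0.19 to 0.40 over all. The points share bins and reads, and these values are descriptions across bin pairs.

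YY1 is a zinc-finger protein that can bind DNA and join with itself, and it has been studied as a factor at contacts of promoters and enhancers. These libraries were made with in situ 3C, unlike the untreated ones, so that levels are not compared between the sets. Total counts were 5792078 and 6251316 in the control siRNA libraries and 4419309 and 12993781 in those with YY1 siRNA. Whether this depth has a part in their scores was not tested. The siRNA libraries scored 30 of the bin pairs, 21 at Klf4 and 9 at Sox2. The 21 Klf4 pairs had an excess of −5.69 and −7.22 with control siRNA and −7.53 and −4.62 with YY1 siRNA. The 9 Sox2 pairs had 9.52 and 5.08 with control and 6.12 and 13.3 with YY1 siRNA. In both loci the libraries of the 2 treatments overlapped.

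Over 54368 bin pairs limma called none changed by YY1 siRNA (0.0%), of the joined pairs 0 of 30. At an unadjusted p below 0.05 it had 3317 of all and 1 of the 30, and no other tool was run on these scores. The lowest adjusted p among the 30 was 0.70. The single pair was Sox2 bins 5 and 223, with 21.1 and 3.91 in control and 38.4 and 36.1 with YY1 siRNA, a difference of 24.7. Sox2 bins 5 and 107 had 44.6 and 19.2 in control and 6.75 and 53.9 with YY1 siRNA. Its difference of −1.56 had an SE of 18.0, too wide to detect a change of 40 score units in this pair.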

How the data were processed

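Raw counts per primer pair were deposited by the authors for each 5C library. For each pair of 4 kb bins and library the authors also deposited an interaction score and a p-value, and the score was checked to equal −10 log2 of the p-value in all 10 libraries. The submitters' processing notes name MACS2, Bowtie and the build mm9. The deposited CTCF lists give a fold (ratio) and −log10 q per peak. Groups and replicates came from titles, and 35 other per-sample columns were not used.

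The bin pairs, lists and tests were chosen with earlier results of these data known. Scores were tested with limma 3.58.1 (trend, group as the only term), untreated and siRNA libraries in separate fits. Counts were summed over pairs of 16 kb windows, which used 79.3% to 90.0% of a library's counts. They were tested with edgeR 4.0.16 (quasi-likelihood, filterByExpr, TMM) and a loess offset (span 0.5) of log count on distance per library and locus, with DESeq2 1.42.0 as an alternative, in R 4.3.3. Adjusted p-values are Benjamini-Hochberg.

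In data simulated for NPC against 2i, limma recovered 66 of 100 changes of 40 score units and 100 of 100 of 80 over 191184 pairs, and edgeR 46 of 100 changes of 1 and 92 of 100 of 2 on the log2 scale over 15190 window pairs. Of the simulated calls, 7.26% were false in limma and 7.38% in edgeR. For siRNA over 54368 pairs, limma recovered 1 of 100 changes of 40 and 65 of 100 of 80, and 15.4% of its calls were false. All 3 shares are above the 5% that the threshold sets. For NPC against 2i, limma made 179 calls in the simulated scores and 7051 in those of the libraries. Whether the recovered and false shares hold for the scores and counts of the libraries was not tested.

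Named bin pairs are the 3 of each locus with the highest mean score, and per untreated comparison the 5 largest rises and falls among limma calls whose groups did not overlap. A pair with both bins within 5 bins of one already taken was skipped. The other Sox2 pairs are named beyond this rule, to account for that locus in full.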

Additional observations from a re-analysis of the deposited data

Results flagged for a closer look

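In some cases every library of a group lay above its matched pairs without CTCF and every library of another group below, which makes 8 differences in excess, none of them tested. Over all loci serum was lower than 2i by a difference of −2.62 (−0.47 against 2.15), and NPCs were higher than serum by 3.84. At Oct4 the same held, with a difference of −3.28 for serum against 2i and of 4.29 for NPCs against serum. At Klf4, with 23 bin pairs, serum differed from 2i by −12.8 and NPCs from 2i by −6.57. At Olig1-Olig2 the order was another, since 2i was below its matches: serum differed from 2i by 2.71 and NPCs from 2i by 3.73.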

How the results depend on the processing

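The excess over matched pairs without a peak is given for 2i, serum and NPCs in this order, with 2.15, −0.47 and 3.37 as the values of the report. The median over pairs, still set against the matched mean, gave −1.67, −4.16 and −0.39, which changed the sign in 2i and NPCs. Pairs without CTCF themselves had a median score of 9.6 and a mean of 13.5 in 2i replicate 1. In NPC replicate 1 these were 9.8 and 13.7. Peaks with a −log10 q of at least 50 gave 2.96, 0.55 and 4.39, and 50% coverage between lists gave 0.36 in serum and 3.72 in NPCs, so that serum reversed under both. Matched pairs without a peak within 2 bins gave 2.68 in 2i and 5.37 in NPCs, pairs at least 100 kb apart 1.07, −1.12 and 2.70, and log2(score + 1) 0.21, −0.073 and 0.33. Of alternatives chosen after seeing the data, the median minus the matched median gave 1.71 and −0.90 in 2i and serum, equal weight for loci 2.56, −0.79 and 6.60, and leaving out Oct4 0.74 in serum, a reversal, and 3.71 in NPCs. Leaving out a library gave 1.93 to 2.36, −0.67 to −0.27 and 3.20 to 3.55. The cause of these changes was not tested. Calls in score by limma numbered 7051 for NPC against 2i (123 of the joined pairs), 18009 for NPC against serum (332) and 13640 for serum against 2i (226). At 100 kb or more they numbered 0 (0), 9668 (193) and 5677 (94). On log2(score + 1) they numbered 11064 (153), 28542 (559) and 22839 (458). With only the libraries of the 2 groups in the fit each was 0 (0). The replicate block also gave 0 (0) in each. Without 1 library they were 0 to 0 (0 to 0) for NPC against 2i and for serum against 2i, and 0 to 6000 (0 to 129) for NPC against serum, where only the fit without NPC replicate 2 made calls. Fits without a library have fewer samples. Calls in counts numbered 2698 (418 window pairs with a joined pair), 4427 (705) and 3298 (518). Windows of 8 kb gave 3642 (155), 8561 (414) and 6294 (319). Without 1 library they were 1312 to 2383 (206 to 347), 2193 to 4352 (353 to 700) and 800 to 3877 (139 to 595). The main fits did not use replicate numbers as pairs. In score, the difference of replicate 1 and 2 correlated between groups by 0.0205 to 0.0531. With the replicate block, calls in counts numbered 3373 (510), 5016 (804) and 3989 (608), each more than without it. Whether replicate numbers mark a batch was not tested. For YY1 siRNA there were 0 calls under every alternative run.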
